A study of Mus musculus with 9 samples.

Results

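A set of 10 enzymes that make citrulline, arginine and proline in the intestine and that open the route to polyamines was chosen by symbol from the 46095 rows of the count table, and all 10 have a row. Described here are 9 of them: Cps1, Otc, Oat, Ass1, Asl, Aldh18a1, Pycr1, Prodh and Odc1. RNA was taken from intestinal epithelial cells (IECs) released from the mouse colon with EDTA, in 4 Smad4-knockout (Smad4 Vil-KO) libraries and 5 Smad4-knockout;Setd2-knockout libraries, called double-knockout below. In these mice, on a C57BL/6J background, Cre recombinase under the Villin promoter deletes floxed alleles in the epithelium of the whole intestine. Both groups therefore carry the Smad4 deletion, and the groups differ in Setd2, which encodes the enzyme that places H3K36me3 on histones. All mice were given the carcinogen azoxymethane (AOM, 10 mg/kg) by intraperitoneal injection at 8 weeks of age and 1 course of 2% dextran sulfate sodium (DSS), a detergent that damages the colon lining, and the cells were taken at 10 days. No untreated library and no library with wild-type Smad4 was analysed here. The labels do not state that each library is a separate animal, so the p-values measure the spread between libraries.

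Enterocytes of the small intestine are the main source of circulating citrulline, which the kidney turns into arginine. In the mitochondrion, glutamate is reduced to a semialdehyde by the Aldh18a1 product and transaminated to ornithine by OAT. CPS1 supplies carbamoyl phosphate, and OTC joins it to ornithine to form citrulline. In the cytosol ASS1 and ASL convert citrulline to arginine. The mitochondrial PYCR1 and PRODH act on proline, PYCR1 in the last step of its synthesis from the same semialdehyde and PRODH in the first step of its breakdown. The cytosolic ODC1 turns ornithine into putrescine, the first polyamine. In the adult colon this citrulline route is known to be weak.

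Library totals were 12487129 to 17120202 counts, and values are CPM (counts scaled to a common library total after its TMM factor), on which 1 count was worth 0.0593 to 0.0793 CPM. Setd2 was at 99 to 119.9 CPM in the Smad4 Vil-KO libraries, against 53.8 to 86.9 CPM in the double-knockout libraries (log2 fold change -0.77, SE 0.14, adjusted p = 0.00756, edgeR), whereas Smad4, deleted in both groups, was at 54.2 to 92.6 and 38.2 to 114 CPM. Counts of a whole gene can hold reads from a transcript that lacks the deleted exons. Double-knockout libraries 1, 2 and 5 had 3857 to 4907 counts of Y-linked genes and 5 or 6 of Xist, against at most 28 and at least 17833 in the other 6 libraries, and the labels do not give the sex. Summed epithelial markers were at 12061 to 13827 CPM in the Smad4 Vil-KO and 11266 to 13239 CPM in the double-knockout libraries, with 0 of 7 called by edgeR (1 higher at an unadjusted p under 0.05, and 0 by DESeq2). Markers of leukocytes summed to 54.4 to 152 and 48.9 to 111 CPM, those of stroma and endothelium to 22 to 39.3 and 30.9 to 70.2 CPM, and those of liver to 19.5 to 34.1 and 12.7 to 31.2 CPM. None of the 10, 6 and 3 tested genes of these lists was called by edgeR, against 0, 2 and 1 at an unadjusted p under 0.05. DESeq2 called 0 of 9, 2 of 9 and 0 of 3, and its 2 calls in stroma, 1 higher (Pdgfra) and 1 lower (Acta2), were of genes that edgeR did not test.

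The following 4 stretches of promoter are shown because their genes passed the test, Otc and Oat upward and Ass1 and Pycr1 downward. They come from RefSeq (GRCm38.p6), which matched 7 of the 9 enzymes, without Cps1 and Asl. Each runs 5′ to 3′ and ends at the RefSeq start, except that 63 bases for Ass1 and 21 bases for Pycr1, which GENCODE M21 places inside the transcript, were left out. Capitals mark matches to the motifs searched on both strands.
Otc, chrX:10252055-10252304, plus strand: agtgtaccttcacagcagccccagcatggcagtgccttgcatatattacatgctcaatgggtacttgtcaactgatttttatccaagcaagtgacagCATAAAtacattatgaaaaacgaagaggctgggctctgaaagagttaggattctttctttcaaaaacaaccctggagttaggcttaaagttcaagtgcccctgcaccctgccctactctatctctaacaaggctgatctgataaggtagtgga
Oat, chr7:132576399-132576648, minus strand: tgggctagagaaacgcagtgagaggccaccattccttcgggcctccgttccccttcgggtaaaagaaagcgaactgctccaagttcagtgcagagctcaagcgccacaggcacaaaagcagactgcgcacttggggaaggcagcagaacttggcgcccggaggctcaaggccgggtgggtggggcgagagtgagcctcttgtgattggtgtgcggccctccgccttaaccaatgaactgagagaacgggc
Ass1, chr2:31470020-31470206, plus strand: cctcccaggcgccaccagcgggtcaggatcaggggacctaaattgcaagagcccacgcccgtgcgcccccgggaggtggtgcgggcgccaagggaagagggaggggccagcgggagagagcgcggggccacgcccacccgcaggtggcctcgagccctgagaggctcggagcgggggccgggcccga
Pycr1, chr11:120643770-120643998, minus strand: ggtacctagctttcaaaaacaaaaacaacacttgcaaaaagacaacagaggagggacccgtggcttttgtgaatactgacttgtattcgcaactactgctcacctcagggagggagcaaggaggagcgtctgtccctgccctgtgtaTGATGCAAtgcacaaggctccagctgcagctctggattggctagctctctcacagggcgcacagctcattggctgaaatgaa

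The capitals in Otc are CATAAA, the core bound by the intestinal factor CDX2, at 153 to 148 bases before the start, and 10.8% of all 32851 promoter windows of 250 bases hold it. In Pycr1 they are TGATGCAA, a match to the ATF4 composite element TGATGNAA at 103 to 96 bases before the start, which 3.45% of windows hold. Ass1 has the E-box CACGTG at 36 to 31 bases before the RefSeq start, within the bases left out, and 6.02% of windows hold that motif. Oat had no match to these 3 motifs, nor to the HNF4 site CAAAGT (12.6% of windows), the HNF1 half-site GTTAAT (6.43%) or the TATA box TATAAA (12.4%). The windows differed in composition, with 43.6% G or C in the Otc promoter, 60% in that of Oat and 75.6% in that of Ass1 over the full 250 bases, beside a median of 52.4% over all windows. These matches are letters in a window and say nothing of binding.

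In the double-knockout libraries the transcripts of 3 enzymes on the way to citrulline, Cps1, Otc and Oat, were higher, by 7.63-fold, 3.24-fold and 1.64-fold. Ass1, which uses citrulline, and Pycr1, which makes proline, were lower, by 1.62-fold and 1.84-fold. Asl, Aldh18a1 and Odc1 did not pass the test. Of the 9 enzymes, 8 passed the filter on low counts and 3 of these were called higher and 2 lower at an adjusted p under 0.05 (quasi-likelihood F-test of edgeR, Benjamini-Hochberg adjustment across the 14593 genes tested). Over all genes tested, 6.76% were called higher and 6.54% lower. The median log2 fold change (double-knockout over Smad4 Vil-KO) was 0.098 over the 8 enzymes tested and -0.000588 over all genes tested. Because the RNA is bulk, a different number of cells of a type and a different amount of RNA per cell cannot be told apart.

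**Figure D1:**
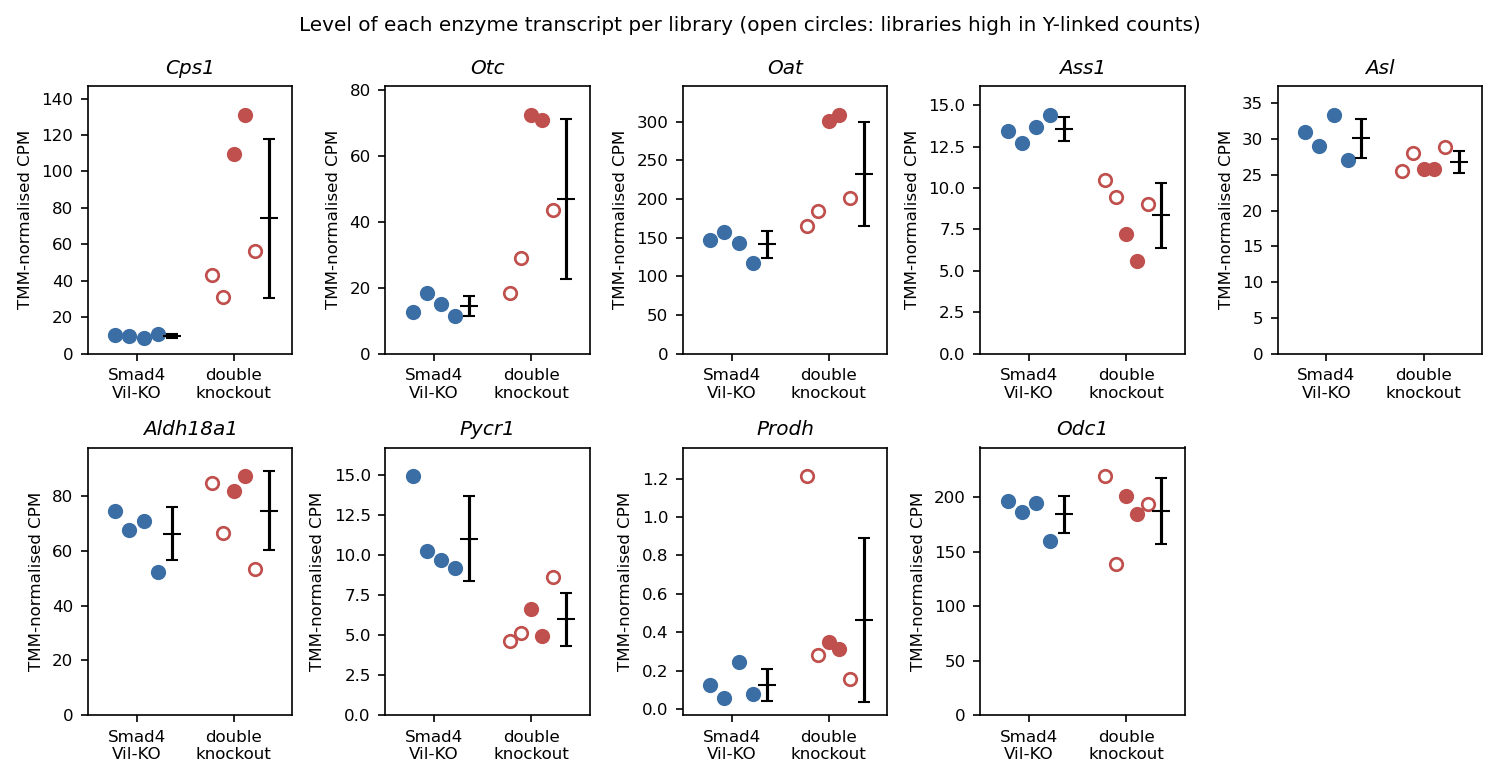
TMM-normalised CPM (vertical axis, starting at or just below 0, with its own scale in each panel) of the 9 enzymes in each of the 4 Smad4 Vil-KO (blue) and 5 double-knockout (red) libraries, with the mean and SD as bars beside the points. Open circles are the 3 libraries high in Y-linked counts. The groups of Cps1, Oat, Ass1 and Pycr1 do not overlap, and the 2 filled red points are the highest for Cps1, Otc and Oat and the lowest for Ass1.

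Cps1 (carbamoyl phosphate synthetase, chr1:67123026-67231259, plus strand, GENCODE M21 on GRCm38) had the largest difference of the 8 tested enzymes. The Smad4 Vil-KO libraries 1 to 4 had 10.4, 9.55, 8.28 and 10.7 CPM, against 42.9, 31.2, 109.6, 131 and 56.3 CPM in double-knockout libraries 1 to 5. The lowest double-knockout library lay well above the highest Smad4 Vil-KO library, and double-knockout libraries 3 and 4 stood highest. Means were 9.73 ± 1.08 CPM (SD, n = 4) against 74.2 ± 43.7 CPM (SD, n = 5), which is 2.93 as a log2 fold change (SE 0.41, adjusted p = 0.00188, edgeR), with a 95% interval of 4.07-fold to 14.3-fold. Over all genes tested, 8.34% had every double-knockout library above every Smad4 Vil-KO library and 8.87% every one below.

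Otc (ornithine transcarbamylase, chrX:10252305-10321024, plus strand) lies on the X chromosome, next to the promoter printed above. Its levels were 12.7, 18.5, 15.1 and 11.4 CPM in the Smad4 Vil-KO libraries, against 18.4, 29.1, 72.6, 70.9 and 43.5 CPM in the double-knockout libraries. The groups overlapped, since double-knockout library 1 lay just below Smad4 Vil-KO library 2, while libraries 3 and 4 were again the highest. The mean was 14.4 ± 3.13 CPM (SD, n = 4) against 46.9 ± 24.4 CPM (SD, n = 5), which is 1.69 as a log2 fold change (SE 0.37, adjusted p = 0.0155, edgeR) with a 95% interval of 1.83-fold to 5.72-fold. Without Smad4 Vil-KO library 1 the adjusted p was 0.0507 (log2 fold change 1.64) and without library 3 it was 0.0517 (1.72).

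Oat (ornithine aminotransferase, chr7:132557478-132576398, minus strand) had the highest level per kilobase of the 3 citrulline enzymes that rose. It was at 147, 158, 143 and 116 CPM in the Smad4 Vil-KO libraries, against 165, 184, 300.3, 309 and 201 CPM in the double-knockout libraries. The groups did not overlap, but double-knockout library 1 was close to the highest Smad4 Vil-KO library. The log2 fold change was 0.72 (SE 0.19, adjusted p = 0.0338, edgeR; means 141 ± 17.5 CPM, SD, n = 4, and 232 ± 67.6 CPM, SD, n = 5). This call was lost when any 1 of the 4 Smad4 Vil-KO libraries or double-knockout library 3 or 4 was left out. Adjusted p-values were then 0.0591 to 0.0953 (edgeR) and log2 fold changes 0.60 to 0.77. The call was also lost with the replicate number as a block (adjusted p = 0.0681, edgeR). With only the double-knockout libraries high in Y-linked counts the adjusted p was 0.072 (log2 fold change 0.38, edgeR).

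Aldh18a1 (pyrroline-5-carboxylate synthetase, chr19:40550257-40588463, minus strand) feeds both ornithine and proline. Its levels were 74.7, 67.6, 70.8 and 52.4 CPM in the Smad4 Vil-KO libraries, against 84.8, 66.4, 82, 87.4 and 53.3 CPM in the double-knockout libraries, and the groups overlapped over most of their range. The log2 fold change was 0.17 (SE 0.15, adjusted p = 0.479, edgeR), with a 95% interval from -0.17 to 0.51. It was 0.070 without Smad4 Vil-KO library 4, 0.28 without double-knockout library 5 and 0.35 in the libraries low in Y-linked counts alone, and was not called in any of the 19 other fits.

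Around these enzymes, the list of citrulline and urea cycle cofactors and carriers had 1 of 4 tested genes higher and 0 lower, with a median log2 fold change of 0.30. Slc25a15, the mitochondrial ornithine carrier, was at 38.7, 46.7, 39.2 and 39.2 CPM in the Smad4 Vil-KO libraries, against 84.3, 74.9, 65.5, 74.4 and 61.9 CPM in the double-knockout libraries (log2 fold change 0.82, SE 0.11, adjusted p = 0.00128, edgeR). All double-knockout libraries were above all Smad4 Vil-KO libraries, and in contrast to Cps1 the highest was library 1. The other 3 tested genes, Nags, Glud1 and Slc25a13, were not called, and Slc25a2, with at most 2 counts in any library, did not pass the edgeR filter.

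**Figure D2:**
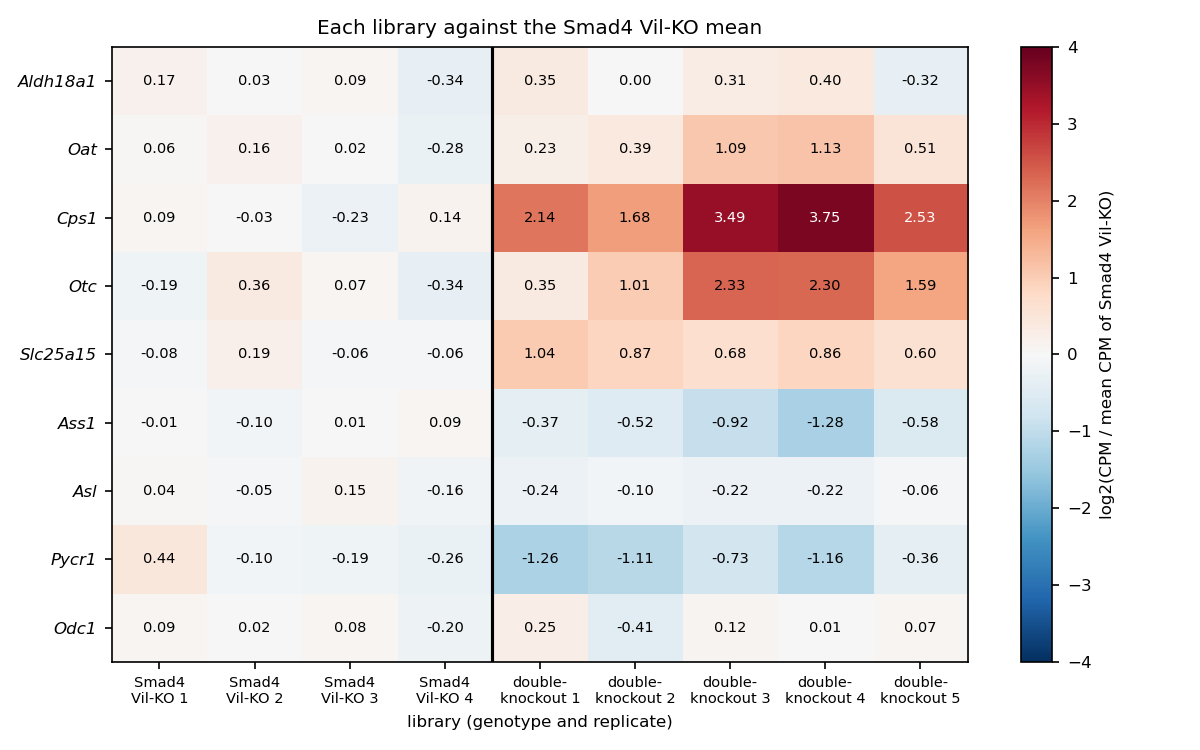
Log2 ratio of each library's CPM to the mean CPM of the Smad4 Vil-KO libraries (colour and printed value), for 9 genes in the rows and the 9 libraries in the columns, with a black line between the genotypes. Cps1 ran from 1.68 to 3.75 and Otc from 0.35 to 2.33 across the double-knockout libraries, both highest in libraries 3 and 4, whereas Slc25a15 was between 0.60 and 1.04 in all 5.

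Ass1 (argininosuccinate synthase, chr2:31470207-31520672, plus strand) takes citrulline onward to arginine and changed in the opposite direction to Cps1, Otc and Oat. Its levels were 13.5, 12.7, 13.7 and 14.4 CPM in the Smad4 Vil-KO libraries, against 10.5, 9.45, 7.19, 5.57 and 9.06 CPM in the double-knockout libraries. All double-knockout libraries were below all Smad4 Vil-KO libraries, and libraries 3 and 4, the highest for Cps1, were the lowest here. The mean was 13.6 ± 0.712 CPM (SD, n = 4) against 8.35 ± 1.96 CPM (SD, n = 5), which is -0.70 as a log2 fold change (SE 0.18, adjusted p = 0.0268, edgeR). The call was lost without any 1 of the Smad4 Vil-KO libraries and without double-knockout library 3 (adjusted p 0.0522 to 0.0773, log2 fold change -0.73 to -0.64). It was also lost with the replicate number as a block (adjusted p = 0.0615, edgeR). With only the double-knockout libraries high in Y-linked counts the adjusted p was 0.0605 (log2 fold change -0.48, edgeR).

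Asl (argininosuccinate lyase, chr5:130011258-130029247, minus strand), which completes arginine synthesis, was at 30.9, 29, 33.4 and 27 CPM and at 25.5, 28, 25.8, 25.8 and 28.9 CPM. The groups overlapped, and the log2 fold change of -0.17 (SE 0.09, adjusted p = 0.237, edgeR) had a 95% interval from -0.37 to 0.03. It was -0.11 without Smad4 Vil-KO library 3.

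Of the list of genes around the other uses of arginine, 0 of 3 tested were called by edgeR, and DESeq2 called 1 higher, Agmat. At an unadjusted p under 0.05 (edgeR), 2 were higher, Gatm and Gamt, of creatine synthesis. Gamt had 6, 9, 5 and 7 counts in the Smad4 Vil-KO libraries, against 4, 11, 26, 15 and 13 in the double-knockout libraries. It passed the filter through double-knockout libraries 2 to 5, where its counts were higher. Nos2, the inducible nitric oxide synthase, was at 13.5, 78.7, 25.9 and 77 CPM and at 43.8, 34, 27.1, 46.8 and 29.4 CPM, with the Smad4 Vil-KO libraries spread around the others (log2 fold change -0.43, SE 0.43, adjusted p = 0.534, edgeR). Its size rested on single libraries: it was -0.73 without Smad4 Vil-KO library 1, -0.095 without library 2 and -0.13 without library 4, and it was not called in any of these fits. Agmat, which encodes a protein related to agmatinase, did not pass the edgeR filter: it had 0, 0, 0 and 1 counts in the Smad4 Vil-KO libraries, against 2, 9, 14, 18 and 3 counts in the double-knockout libraries. Nos1, Nos3 and Azin2, placed in the same list, did not pass the edgeR filter either.

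Pycr1 (pyrroline-5-carboxylate reductase, chr11:120635712-120643769, minus strand) was lower in the double-knockout libraries. It was at 14.9, 10.3, 9.69 and 9.19 CPM in the Smad4 Vil-KO libraries, against 4.61, 5.11, 6.63, 4.95 and 8.59 CPM in the double-knockout libraries. The groups did not overlap, although double-knockout library 5 came close to Smad4 Vil-KO library 4, and library 1 of Smad4 Vil-KO stood well above its group. The mean was 11 ± 2.64 CPM (SD, n = 4) against 5.98 ± 1.65 CPM (SD, n = 5), which is -0.88 as a log2 fold change (SE 0.22, adjusted p = 0.0262, edgeR). The call was lost without Smad4 Vil-KO library 1, 2 or 3 or double-knockout library 2 or 4 (adjusted p 0.0510 to 0.0850, log2 fold change -0.94 to -0.70). It was also lost with a term for high Y-linked counts (adjusted p = 0.0908, edgeR). With only the double-knockout libraries high in Y-linked counts the adjusted p was 0.0771 (log2 fold change -0.85, edgeR).

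The other proline genes were tested as a list of 5, of which 0 were higher and 2 lower, with a median log2 fold change of -0.61. P4ha1, a catalytic subunit of collagen prolyl 4-hydroxylase, was at 19.7, 25.2, 24.7 and 19.3 CPM and at 13.5, 11.7, 12.3, 10.4 and 16 CPM (log2 fold change -0.80, SE 0.15, adjusted p = 0.00692, edgeR). P4ha2, a second catalytic subunit, was at 3.96 to 5.19 CPM and at 1.65 to 3.35 CPM (log2 fold change -0.96, SE 0.24, adjusted p = 0.0264, edgeR). Without Smad4 Vil-KO library 1, 2 or 3 or double-knockout library 1 or 4 the adjusted p of P4ha2 was 0.0509 to 0.0769 (log2 fold change -0.96 to -0.84), and the call was also lost with the replicate block, with a term for high Y-linked counts and in the libraries low in Y-linked counts alone (adjusted p 0.0615, 0.115 and 0.0669). Neither gene overlapped between the groups, and both encode enzymes that modify proline in collagen and do not make it. Aldh4a1, which oxidises the semialdehyde to glutamate, was at 28.8 to 33.6 CPM and at 13 to 28.4 CPM, without overlap (log2 fold change -0.61, SE 0.20, adjusted p = 0.0653, edgeR), and DESeq2 called it lower.

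Prodh (proline dehydrogenase, chr16:18060357-18090203, minus strand) had 2, 1, 4 and 1 counts in the Smad4 Vil-KO libraries, against 19, 4, 5, 4 and 2 counts in the double-knockout libraries, and did not pass the filter. With no filter its log2 fold change was 1.78 (SE 0.73, adjusted p = 0.166, edgeR), and library 1 held most of its double-knockout counts. Prodh2 had no count in any library and P4ha3 had 1 count in 1 library.

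Odc1 (ornithine decarboxylase, chr12:17544794-17551505, plus strand) was at 197, 186, 194 and 159.9 CPM in the Smad4 Vil-KO libraries, against 219, 139, 201, 185 and 193 CPM in the double-knockout libraries. The double-knockout libraries lay on both sides of the Smad4 Vil-KO libraries, and the log2 fold change of 0.024 (SE 0.12, adjusted p = 0.914, edgeR) had a 95% interval from -0.25 to 0.30. The sign of this value turned when 1 library was left out (-0.042 without Smad4 Vil-KO library 4 and -0.036 without double-knockout library 1). Of the 11 other polyamine genes tested, 0 were higher and 2 lower, with a median log2 fold change of -0.17. Smox, spermine oxidase, was at 44.5, 61.3, 60.3 and 60.1 CPM and at 42.9, 32.7, 31.3, 28.3 and 31.4 CPM (log2 fold change -0.76, SE 0.14, adjusted p = 0.00602, edgeR). Oaz1, the antizyme that binds ornithine decarboxylase and directs it to degradation, was at 78.8, 71.3, 77 and 63.3 CPM and at 38.8, 37.3, 50.4, 45.6 and 64.3 CPM (log2 fold change -0.62, SE 0.15, adjusted p = 0.0232, edgeR). Smox did not overlap between the groups, whereas double-knockout library 5 lay within the Smad4 Vil-KO range for Oaz1, a gene whose reads could be shared with the pseudogene Oaz1-ps. The call of Oaz1 was lost without Smad4 Vil-KO library 1, 2 or 3 or double-knockout library 4 (adjusted p 0.0510 to 0.0758, log2 fold change -0.63 to -0.57), with a term for high Y-linked counts (adjusted p = 0.0995) and with only the double-knockout libraries high in Y-linked counts (adjusted p = 0.0654).

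**Figure D3:**
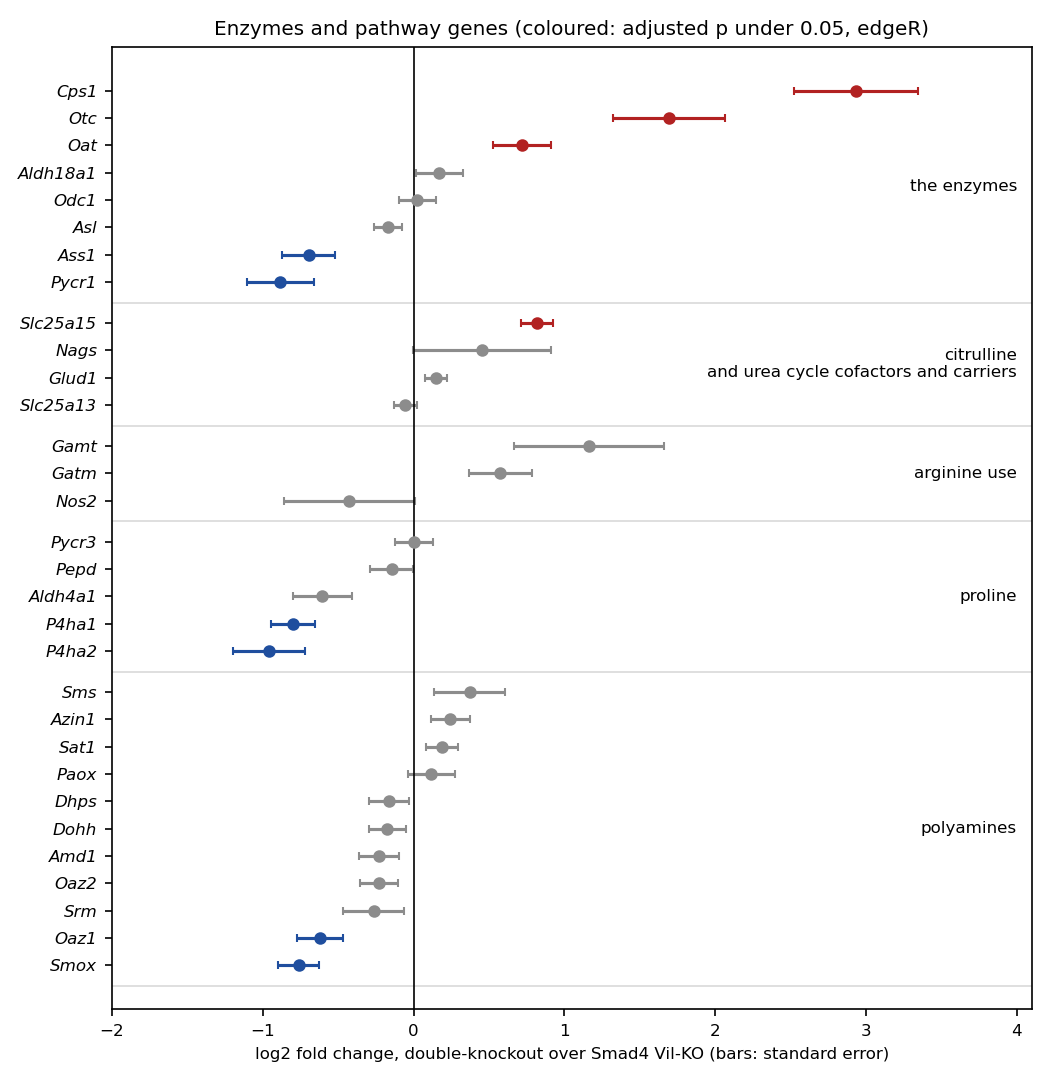
Log2 fold change of each tested gene, double-knockout over Smad4 Vil-KO (horizontal axis), with its standard error, for the 8 tested enzymes and the 4 pathway lists around them (rows, sorted within each list). Red and blue points passed an adjusted p under 0.05 upward and downward (edgeR). Cps1 lies farthest to the right at 2.93 and P4ha2 farthest to the left at -0.96.

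The 11 genes of the amino acid response, which ATF4 drives when amino acids are scarce and which include serine synthesis and asparagine synthetase genes, were listed because Aldh18a1 and Pycr1 are known ATF4 targets. None of the 10 tested was called by edgeR, and the median log2 fold change was 0.016. Slc7a11, the cystine transporter, was the one gene with an unadjusted p under 0.05 (log2 fold change 0.80, adjusted p = 0.0544, edgeR), and DESeq2 called it higher. Over the 5 pathway lists, edgeR called 5 of 33 tested genes, where 13.3% of all genes tested were called in either direction. DESeq2 called 8 of the 37 it tested, a set that is larger through its other filter and holds Agmat, where it called 16.2% of all genes it tested.

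Per kilobase of exon, the order of mean levels in the Smad4 Vil-KO libraries was Odc1 (83.5 CPM per kb), Oat (65.5), Aldh18a1 (18.8), Asl (10.1), Ass1 (8), Otc (3.40), Pycr1 (2.92), Cps1 (1.75) and Prodh (0.0449). Ranges over these 4 libraries overlapped for Odc1 with Oat and for Otc with Pycr1, although Odc1 stood above Oat within each library. In the double-knockout libraries Oat led at 108 CPM per kb, before Odc1 at 84.9, Aldh18a1 at 21.2, Cps1 at 13.4, Otc at 11.1, Asl at 8.98, Ass1 at 4.92, Pycr1 at 1.59 and Prodh at 0.163. Neighbours in that order whose ranges overlapped were Oat and Odc1, Aldh18a1 and Cps1, Cps1 and Otc, and Otc and Asl. By mean level Cps1 and Otc stood below Ass1 in Smad4 Vil-KO and above it in the double knockout. There their ranges still overlapped with that of Ass1. Within each double-knockout library, though, Aldh18a1 stood above Cps1 and Cps1 above Ass1. On the same scale Pycr3, a cytosolic relative of Pycr1 listed under an older symbol in the table, was at 33.1 and 33.2 CPM per kb, above Pycr1 in both genotypes.

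Within the gut Cps1 and Otc are best known from enterocytes of the small intestine, so markers of that cell type were set beside them. Their summed level was 620 to 701 CPM over the Smad4 Vil-KO libraries, whereas it reached, in double-knockout libraries 1 to 5, 1573, 2016, 1251, 1847 and 878 CPM. Of 12 tested markers, 8 were higher and 0 lower (edgeR), while Apoa1 and Apoa4 had 0 counts in every Smad4 Vil-KO library. Apoa1 was among the 8, but it passed the filter through double-knockout libraries alone and so could only be called higher. Apoa4, Apoc3 and Lct did not pass the filter. Most of the sum in the Smad4 Vil-KO libraries came from Apob, Fabp2 and Slc5a1, which were not called. These 3 were set aside as the most abundant listed markers in the Smad4 Vil-KO libraries. That choice itself lowers the remaining sum in these libraries. The other 12 of the 15 listed markers summed to 59.2 to 84.2 CPM there, against 769, 908, 575, 951 and 246 CPM in double-knockout libraries 1 to 5, highest in library 4, where Cps1 was highest, and next in library 2, where Cps1 was lowest of its group. Apoa1 was at 39.2, 26, 1.4, 16.3 and 0.155 CPM in double-knockout libraries 1 to 5, so that library 3, with Cps1 at 109.6 CPM, held little of it. Library 3 also lay below libraries 1, 2 and 4 for Enpep, Mttp, Slc10a2, Anpep and Rbp2, and below libraries 2 and 4 for Fabp6. Of the called markers, the disaccharidase gene Sis alone was highest in libraries 3 and 4, at 95.7, 104.6, 211, 278 and 85.2 CPM in libraries 1 to 5. Colonocyte markers summed to 9505 to 12177 CPM in the Smad4 Vil-KO and 3879 to 8281 CPM in the double-knockout libraries, and 0 of 9 were higher and 2 lower (Hoxb13 and Muc2). Muc2, a mucin of goblet cells, made most of that gap: without it the other 8 markers summed to 4279 to 5387 CPM and 2210 to 6411 CPM, and these ranges overlapped. The part of these marker differences in the values of Cps1, Otc, Oat and Ass1 was not tested.

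Among the double-knockout libraries, the 2 low in Y-linked counts were those with the most Cps1, Otc and Oat and the least Ass1, and all Smad4 Vil-KO libraries were low in Y-linked counts. Restricted to the 6 libraries low in Y-linked counts (4 against 2), the log2 fold changes were 3.64 for Cps1, 2.31 for Otc, 1.11 for Oat, -1.08 for Ass1 and -0.92 for Pycr1, and all 5 passed an adjusted p under 0.05 (edgeR). With only the 3 libraries high in Y-linked counts against the 4 Smad4 Vil-KO libraries, the values were 2.16 for Cps1 and 1.07 for Otc, both called, and 0.38 for Oat (adjusted p = 0.072), -0.48 for Ass1 (adjusted p = 0.0605) and -0.85 for Pycr1 (adjusted p = 0.0771), none of which was called by edgeR. The direction of these 5 enzymes was the same in both sets of libraries, which share the Smad4 Vil-KO libraries. For Cps1, Oat, Ass1 and Pycr1 this was fixed beforehand, because their groups do not overlap. The difference between the sets was not tested.

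**Figure D4:**
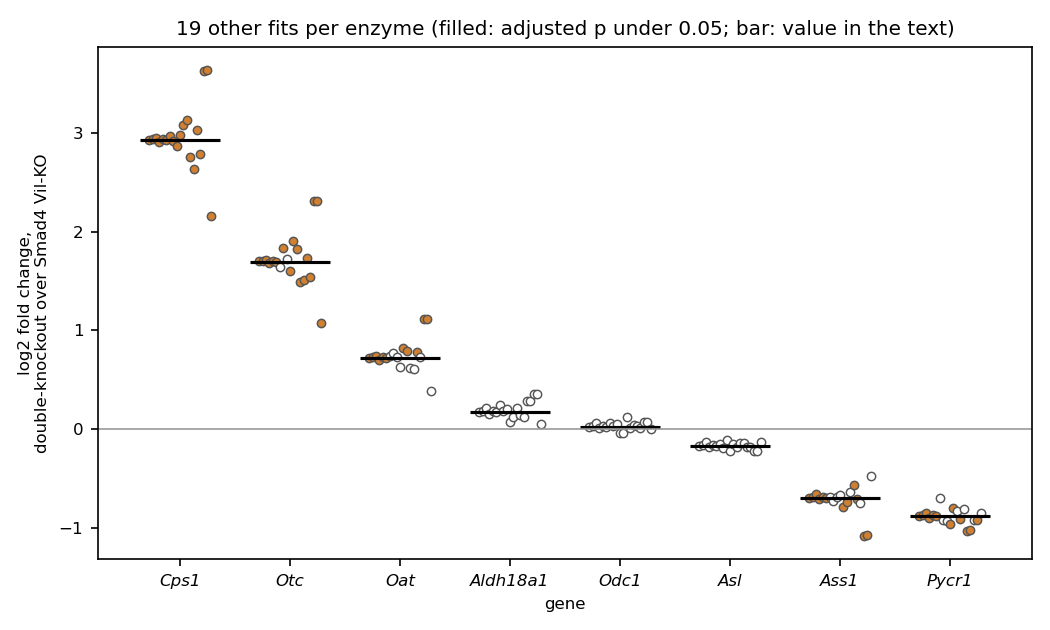
Log2 fold change, double-knockout over Smad4 Vil-KO (vertical axis), of the 8 tested enzymes under 19 other fits (points, spread sideways), among them each library left out in turn, with the value given in the text as a bar. Filled points had an adjusted p under 0.05: 19 of 19 for Cps1, 17 for Otc, 11 for Oat and 12 for each of Ass1 and Pycr1. Aldh18a1, Odc1 and Asl had none.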

How the data were processed

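IECs were isolated from the colon with EDTA, total RNA was extracted with Trizol, and mRNA libraries were sequenced. The submitters' processing notes list HISAT2 2.0 and the genome build mm10. The counting program, its annotation and its strand setting are not given in the sources used here. The authors deposited whole-number counts per gene symbol for 9 libraries, without normalization or pooling. The table held 46095 symbols. Dates stood in place of 27 symbols, and these rows entered the tests unnamed. Within a genotype, no 2 libraries agreed within sampling noise (the lowest chi-square was 9.92 per gene), and all 9 entered as replicates.

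In R 4.3.3 with edgeR 4.0.16, genes were kept with filterByExpr by genotype (14593 genes) and normalised with TMM (factors 0.956 to 1.09). The genotypes were compared with the quasi-likelihood test without covariates, with Benjamini-Hochberg adjustment over all genes tested. Genes with an adjusted p under 0.05 are said to be called, higher, lower, risen or fallen. Standard errors were taken as the size of the log2 fold change divided by the square root of F, and intervals are at the 95% level. The biological coefficient of variation was 21.2%. The paper's general statement on statistics names ANOVA and Student's t-test, and its text selects genes by fold change. Neither is made for counts, so edgeR was used here. DESeq2 1.42.0, other scalings, filters and thresholds, left-out libraries, a replicate block and Y-linked counts as a term or a restriction were the alternatives. The scripts were tested on simulated data. Depth limits the precision of genes with few counts, such as Prodh. Levels per kilobase used the union of exons in GENCODE M21.

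The 10 enzymes and the pathway and marker lists were chosen with earlier results of these data known. Among them, 1 enzyme and some genes of the lists are not reported here and were left out of the lists, their counts, sums and medians, but not of the fits. The genes named are the other 9 enzymes, the genes of the 5 pathway lists with an adjusted p under 0.05, Nos2 whatever its p, and Setd2 and Smad4 as the check of the labels. Nags, Glud1, Slc25a13, Slc25a2, Gatm, Gamt, Agmat, Pycr3, Slc7a11, Aldh4a1, Prodh2, P4ha3, Nos1, Nos3 and Azin2, and the markers named, were chosen after their values were seen.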

Additional observations from a re-analysis of the deposited data

Results flagged for a closer look

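In 32 groups of 4 or 5 libraries, for 16 of the genes named, a library was marked where its gap to the next one, divided by the range of the group, passed Dixon's critical value at the 95% level. Chance marks about 1 in 20 such groups, and 3 were marked here. Prodh, which starts proline breakdown, was at 1.22 CPM in double-knockout library 1, where the next highest library of that genotype was at 0.349 CPM. Slc25a15, the ornithine carrier, was at 46.7 CPM in Smad4 Vil-KO library 2 and at 39.2 CPM in the next highest, both below the lowest double-knockout library. Smox, the spermine oxidase, was at 44.5 CPM in Smad4 Vil-KO library 1, near the highest double-knockout library at 42.9 CPM, while the next lowest library of its own genotype was at 60.1 CPM.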

How the results depend on the processing

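Cps1, Slc25a15, P4ha1 and Smox kept their direction and their call under all 19 other fits, and Cps1 stayed between 2.16 and 3.64 on the log2 scale. Oat kept its call in 11 of 19, Ass1 and Pycr1 in 12, Otc in 17, Oaz1 in 13 and P4ha2 in 11, all in their first direction. The cause of these losses was not tested. Leaving out 1 library at a time gave log2 fold changes of 1.49 to 1.90 for Otc (called in 7 of 9), 0.60 to 0.82 for Oat (3 of 9), -0.79 to -0.57 for Ass1 (4 of 9), -1.04 to -0.70 for Pycr1 (4 of 9) and -0.042 to 0.12 for Odc1. The number of enzymes called higher was then 1 to 3 and lower 0 to 2, of pathway genes called 3 to 7 against 5 with all libraries (3 without Smad4 Vil-KO library 1, 2 or 3 or double-knockout library 4), and of all genes called 847 to 2696, against 1941 with all libraries. The lowest of these, 847, came without Smad4 Vil-KO library 3, and the count also moved by over 1.5 times without Smad4 Vil-KO library 1 (1018), 2 (1204) or 4 (1183) or double-knockout library 4 (1273).

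At an adjusted p under 0.01, 1 enzyme was called higher, 0 lower, 3 pathway genes and 572 genes in all. DESeq2 called 8 pathway genes of 37 tested and 2910 genes of 18005. At an adjusted p under 0.1, 8 pathway genes and 3107 genes were called. With a term for high Y-linked counts, 1 enzyme was called lower and 1285 genes in all, and Pycr1 was at -0.93 (adjusted p = 0.0908). With the libraries low in Y-linked counts alone, 10 pathway genes and 2930 genes were called. With the double-knockout libraries high in Y-linked counts only, a fit chosen after seeing the data, 0 enzymes were called lower and 1251 genes in all. Oat was then at 0.38, Ass1 at -0.48 and Pycr1 at -0.85, none of them called. The other scalings, filters and the robust dispersion changed no call of an enzyme.

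The replicate numbers did not pair the libraries (correlations of deviations of same-numbered libraries -0.0955, -0.104, 0.0196 and 0.0878, and 0 of 4 libraries of either genotype correlated best with their own number). With the replicate number as a block over libraries 1 to 4, 1 enzyme was called lower, Oat was at 0.73 (adjusted p = 0.0681), Ass1 at -0.75 (adjusted p = 0.0615) and Nos2, not called, at -0.076 (all edgeR).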
